A study of Mus musculus with 12 samples.

Results

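The genes described here mark the 2 layers of small brain vessels. They are 10 of the 21872 gene symbols in the count table and were taken by symbol from a list drawn up with earlier results of these data known. Endothelial cells are represented by Cldn5, Slco1a4, Pecam1, Flt1, Kdr and Tek, and the adhesion receptor Vcam1 stands beside them. Mural cells, the pericytes and smooth muscle cells around the endothelium, are represented by Rgs5, Pdgfrb and Acta2. All 10 genes had reads in all 12 libraries and passed the filter on low counts. The lowest value of any member was 4.54 CPM, 92 counts of Acta2 (CPM, counts scaled to the library total after TMM correction).

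Messenger RNA was sequenced from prefrontal cortex (PFC) and striatum (STR) at postnatal day 24, in C57BL/6J mice. The groups were lesioned PFC, control PFC, lesioned STR and control STR, with 3 libraries each. The lesioned mice are a model of attention-deficit/hyperactivity disorder in which 6-hydroxydopamine (6-OHDA), which destroys dopamine neurons, was given after birth. The labels call this condition a genotype, but no allele is named. The sources used here do not give the dose, route and day of the toxin, the treatment of the controls, the sex of the mice or any pooling. Whether the 3 libraries of a group are separate animals is not labelled either, so each p-value measures the spread between libraries, which may be technical.

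In the brain, endothelial cells are sealed to each other by tight junctions and carry transporters that decide what passes from blood to tissue, which together form the blood-brain barrier. Pericytes are held on the vessel by platelet-derived growth factor from the endothelium, and smooth muscle cells ring the larger arterioles. Vascular endothelial growth factor (VEGF) and the angiopoietins signal to the endothelium through their own receptors, and Wnt ligands from neurons and glia maintain the barrier.

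Libraries held 15078631 to 20925452 counts. A gene with 3 counts, the floor used here, would stand at 0.148 to 0.204 CPM, a limit for counting error only. The biological coefficient of variation, the spread between libraries beyond counting, was 5.81% in PFC and 15% in STR. Some libraries stood apart in markers of neighbouring tissue. Control PFC library 3 had a summed level of 85.8 CPM over 12 vascular smooth muscle genes, against 43.4 and 44.3 CPM in the other control PFC libraries. Control STR library 2 had 2163 CPM over 12 choroid plexus and ependymal genes, against 93.3 and 116 CPM in the other control STR libraries. The same genes summed to 44.6 CPM in lesioned PFC library 2, against 14.6 and 14.9 CPM in the other lesioned PFC libraries. Markers of striatal projection neurons, 10 genes, summed to 4261 to 11150 CPM in lesioned STR and 1835 to 3144 CPM in control STR. In PFC they summed to 458, 674 and 1024 CPM in control libraries 1, 2 and 3 and to 417 to 651 CPM in lesioned ones. Markers of cortical excitatory neurons, 8 genes, summed to 970 CPM in control STR library 2, against 35.7 and 119 CPM in the other control STR libraries. In lesioned STR they summed to 80.2 to 278 CPM. Markers of hypothalamus and basal forebrain summed to 99.6, 677 and 662 CPM in lesioned STR and 629, 239 and 552 CPM in control STR, against at most 9.38 CPM in any PFC library. These sums cover 10 genes, of which 4 hold only counts that are multiples of 11 and were left out of the tests. How much of each sum those 4 make up is not given here. The part of tissue make-up in the results of either region, and in the comparisons of regions, was not tested. In bulk tissue fewer vascular cells and less RNA per vascular cell cannot be told apart.

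Levels between genes were compared per kilobase of exon (RPKM). In lesioned PFC the order was led by Rgs5 with 26.1 ± 0.31 RPKM and Cldn5 with 20.0 ± 2.55, followed by Slco1a4 with 9.39 ± 0.056 (SD, n = 3). Pdgfrb and Flt1, both near 5.05 RPKM, did not differ beyond their spread. Acta2 (3.37 ± 0.65), Tek (3.33 ± 0.17), Pecam1 (2.76 ± 0.41), Vcam1 (2.59 ± 0.12) and Kdr (1.89 ± 0.12) came last. In control PFC the first ranks were the same, Rgs5 with 29.2 ± 0.78 RPKM and Cldn5 with 27.4 ± 1.95, within the spread of each other. Kdr was again lowest with 2.03 ± 0.10 RPKM. In lesioned STR, Rgs5 stood at 21.05 ± 0.58 and Cldn5 at 14.6 ± 1.39 RPKM, whereas in control STR both were alike with 21.1 ± 1.32 and 21.02 ± 1.45. Kdr was the lowest member in STR too, with 1.36 ± 0.20 RPKM after the lesion and 2.02 ± 0.27 in controls.

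The upstream sequences of 4 endothelial members are shown because these genes, all made by endothelial cells, were not all called alike after the lesion. Cldn5 and Slco1a4 were called lower in lesioned PFC, and Flt1 and Kdr were not. The larger fold change of Kdr in STR did not pass (edgeR, adjusted p = 0.183), nor did its difference between regions (edgeR, adjusted p = 0.345). Each run is the sequence before the annotated RefSeq start in GRCm38.p6, 5′ to 3′ on the gene's strand. Capitals mark GGAA on either strand (TTCC on the strand printed), the core letters recognised by ETS factors such as Erg and Fli1. The windows are chr16:18776597-18776846 on the plus strand for Cldn5, chr6:141856221-141856470 on the minus strand for Slco1a4, chr5:147726012-147726261 on the minus strand for Flt1 and chr5:75978459-75978705 on the minus strand for Kdr.
Cldn5: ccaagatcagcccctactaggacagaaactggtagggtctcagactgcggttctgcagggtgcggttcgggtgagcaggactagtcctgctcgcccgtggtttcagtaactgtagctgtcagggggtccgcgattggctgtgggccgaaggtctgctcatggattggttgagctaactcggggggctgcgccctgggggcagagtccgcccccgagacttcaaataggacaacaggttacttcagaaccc
Slco1a4: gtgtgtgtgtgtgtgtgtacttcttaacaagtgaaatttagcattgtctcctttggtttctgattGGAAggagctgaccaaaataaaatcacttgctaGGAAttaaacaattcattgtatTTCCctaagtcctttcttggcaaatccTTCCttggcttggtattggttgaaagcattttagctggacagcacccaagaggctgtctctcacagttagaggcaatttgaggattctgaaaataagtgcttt
Flt1: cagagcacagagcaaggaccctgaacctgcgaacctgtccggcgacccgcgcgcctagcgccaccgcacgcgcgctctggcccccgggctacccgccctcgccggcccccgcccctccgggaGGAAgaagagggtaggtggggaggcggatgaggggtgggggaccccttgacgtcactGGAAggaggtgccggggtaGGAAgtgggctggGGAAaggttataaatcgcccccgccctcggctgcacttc
Kdr: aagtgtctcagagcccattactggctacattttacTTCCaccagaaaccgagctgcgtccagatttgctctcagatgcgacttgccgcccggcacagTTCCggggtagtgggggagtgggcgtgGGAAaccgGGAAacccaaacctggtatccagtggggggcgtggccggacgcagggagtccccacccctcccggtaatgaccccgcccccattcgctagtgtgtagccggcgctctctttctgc
The Cldn5 window of 250 bases holds GGAA 0 times, while the other 3 hold it 4 times each. The longer AGGAAG is found 2 times for Flt1, 1 time for Slco1a4 and 0 times for Kdr and Cldn5. Of 32851 mouse windows of this kind, 93.4% hold GGAA, with a median of 3, and 29.5% hold AGGAAG on either strand. The GC content was 39.2% for Slco1a4, 59.6% for Cldn5, 61.5% for Kdr and 70.4% for Flt1, against a median of 52.4%. A match describes these letters only and a missing match says nothing of a factor. The 4 windows were chosen by the lesion response of their genes, and a relation of these letters to it was not tested.

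In PFC, 3 of the 10 members were lower after the lesion and 0 were higher. These 3 were the endothelial barrier genes Cldn5 and Slco1a4 and the adhesion receptor Vcam1. Cldn5 stood at 0.726 times the control level, Vcam1 at 0.747 times and Slco1a4 at 0.805 times. None of the 3 mural members passed the threshold. Of all 14545 genes tested, 5.53% were called, 2.18% lower and 3.35% higher (edgeR quasi-likelihood test on the 6 PFC libraries, Benjamini-Hochberg adjusted p below 0.05).

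Cldn5, on chromosome 16 at 18776847 to 18778262 of mm10 (plus strand), encodes claudin-5, the main claudin of the endothelial tight junction. Its level was 30.4, 30.3 and 24.1 CPM in lesioned PFC, against 38.0, 36.4 and 41.8 CPM in control PFC. All 3 lesioned libraries lay below all 3 controls. The log2 fold change, lesioned over control, was -0.46 (SE 0.091, adjusted p = 0.01).

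Slco1a4, on chromosome 6 at 141805440 to 141856199 (minus strand), encodes an organic anion transporter of the endothelial membrane. It stood at 60.6, 60.1 and 59.9 CPM in lesioned PFC, against 71.8, 72.7 and 78.4 CPM in control PFC. The lesioned libraries were nearly equal to each other and lay below every control. The log2 fold change was -0.31 (SE 0.055, adjusted p = 0.00565). Close relatives of the Slco1a family could share reads with it, since how such reads were treated is not known here.

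Vcam1, on chromosome 3 at 116109949 to 116129688 (minus strand), encodes a receptor that holds leukocytes on activated endothelium and is also found on mouse neural stem cells. Its level was 23.0, 21.9 and 24.01 CPM in lesioned PFC, against 29.6, 31.0 and 30.9 CPM in control PFC. The groups did not overlap and each was tight. The log2 fold change was -0.42 (SE 0.072, adjusted p = 0.00491). The gene overlaps Gm43109 on the other strand, and without a stated strand setting reads of the pair cannot be told apart.

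The other endothelial members in PFC were the junction molecule Pecam1 and the growth factor receptors. Flt1, a VEGF receptor that binds the ligand tightly and signals weakly, stood at 68.7, 67.4 and 68.4 CPM in lesioned PFC, against 63.1, 58.1 and 61.2 CPM in control PFC. It was the single member whose lesioned libraries all lay above the controls (log2 fold change 0.15, SE 0.055, adjusted p = 0.132). Kdr, the main signalling VEGF receptor, stood at 18.3, 16.3 and 16.7 CPM after the lesion and 18.8, 17.3 and 18.9 CPM in controls, and the groups overlapped (-0.11, SE 0.089, adjusted p = 0.534). Tek, the angiopoietin receptor, ranged over 14.9 to 16.5 CPM in lesioned and 15.7 to 18.5 CPM in control PFC (-0.13, SE 0.095). Pecam1, which joins endothelial cells to each other, had 15.2 to 20.0 CPM in lesioned and 19.1 to 22.8 CPM in control PFC (-0.26, SE 0.11, adjusted p = 0.203). These 4 genes lie on chromosome 5 at 147561604 to 147726011 (Flt1), chromosome 5 at 75932827 to 75978458 (Kdr), chromosome 4 at 94739289 to 94874976 (Tek) and chromosome 11 at 106654217 to 106750628 (Pecam1).

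Among mural members in PFC, Rgs5 came closest to the threshold. It encodes a brake on G protein signalling that is abundant in pericytes, and lies on chromosome 1 at 169655501 to 169695813. Its level was 120, 117 and 119 CPM in lesioned PFC, against 129, 134 and 136 CPM in control PFC. The groups did not overlap, and the log2 fold change was -0.17 (SE 0.048, adjusted p = 0.0513). With at least 1 CPM in 3 libraries as the filter it was called (adjusted p = 0.0488), as it was by DESeq2 (0.0459) and limma-voom (0.0413).

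Pdgfrb, the receptor through which pericytes are recruited, lies on chromosome 18 at 61045150 to 61085061. It had 29.6, 29.3 and 24.1 CPM in lesioned PFC and 24.8, 28.3 and 33.7 CPM in control PFC (log2 fold change -0.07, SE 0.11, adjusted p = 0.787). Both groups spanned nearly the same range. Acta2, smooth muscle actin, lies on chromosome 19 at 34241090 to 34255590. It had 8.83, 7.36 and 5.99 CPM in lesioned PFC and 4.54, 8.86 and 24.3 CPM in control PFC. The lesioned libraries lay within the span of the controls, which differed 5.35-fold among themselves (-0.73, SE 0.42, adjusted p = 0.353). Without control PFC library 3 its log2 fold change was 0.17, and without control PFC library 1 it was -1.16 (adjusted p = 0.0345). Other actin genes could share reads with Acta2.

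**Figure D1:**
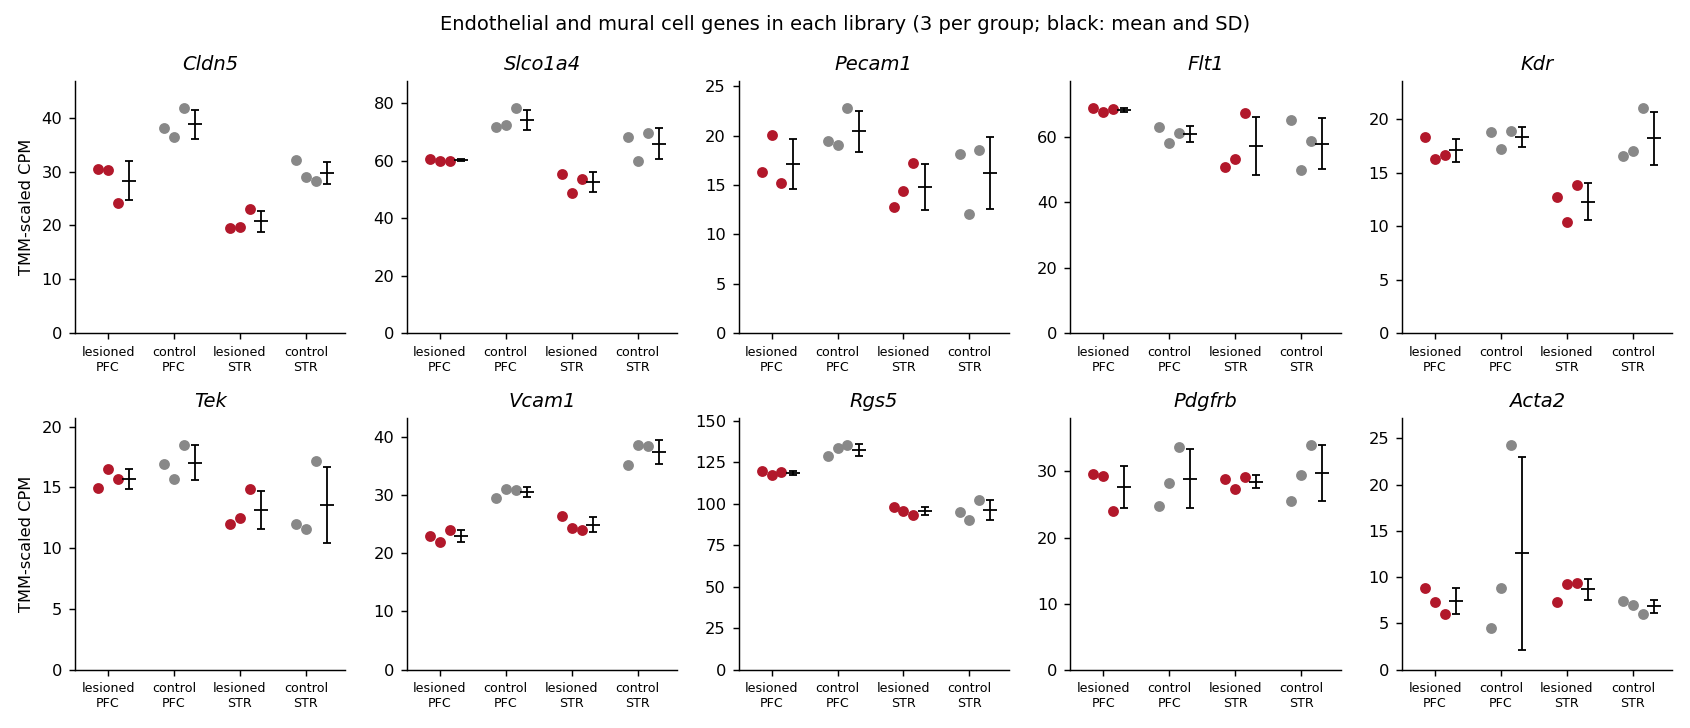
Level of each member in each library (vertical axis, TMM-scaled CPM), with lesioned libraries in red and control libraries in grey and the mean and SD in black (n = 3). In PFC the red points of Cldn5, Slco1a4, Vcam1 and Rgs5 lie below all grey ones and those of Flt1 above; in STR those of Cldn5, Slco1a4, Vcam1 and Kdr lie below, and the 24.3 CPM of Acta2 in 1 control PFC library stands alone.

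Over the set, 9 of 10 members had a log2 fold change below 0 in PFC, as had 51.4% of all genes, and 9 of 10 in STR, as had 50.8%. The median was -0.22, against -0.0048 over all genes tested. Libraries did not overlap for 4 members lower (10.8% of all genes) and 1 higher (14%). Summed over the 6 endothelial members, the level was 200 to 211 CPM in lesioned PFC and 219 to 242 CPM in control PFC. The 3 mural members summed to 149 to 158.3 CPM in lesioned and 158.1 to 194 CPM in control PFC. In STR the 6 endothelial members summed to 163, 159 and 190 CPM in lesioned and 212, 179 and 213 CPM in control libraries. The 3 mural members summed to 135, 132 and 132 CPM in lesioned and 128, 127 and 143 CPM in control STR. Both striatal sums overlapped between the groups.

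The 3 PFC calls depended on the libraries in the fit. With all 12 libraries in 1 fit, Vcam1 stayed called (adjusted p = 0.0413), while Cldn5 (0.12) and Slco1a4 (0.135) were not, and 30 genes in place of 804 were called in all. Without lesioned PFC library 2 and control PFC library 3, a pair chosen after the data had been seen for their neighbouring tissue markers, 0 members were called, with log2 fold changes of -0.46 for Cldn5, -0.27 for Slco1a4 and -0.38 for Vcam1 and adjusted p from 0.0883 to 0.0886 for the 3.

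In STR, 0 of 10 members passed the threshold with edgeR, where 0.0275% of all genes did (0.0206% lower). At an unadjusted p below 0.05 there were 4 (2500 of all 14545 genes), Vcam1, Cldn5, Slco1a4 and Kdr, each with all lesioned libraries below all controls. DESeq2 called 3 members (Cldn5, Kdr and Vcam1) and 522 of all genes. Limma-voom with quality weights called 3 (Cldn5, Slco1a4 and Vcam1) and 270 of all genes. The fit of all 12 libraries called the 4 members and 1040 of all genes. The values lay at 0.662 to 0.792 times the control level for the 4 genes.

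Vcam1 stood at 26.3, 24.3 and 24.05 CPM in lesioned STR, against 35.1, 38.6 and 38.5 CPM in control STR. Every lesioned library lay below every control. The log2 fold change was -0.60 (SE 0.083, adjusted p = 0.0911). Without lesioned STR library 1 and control STR library 2, it was -0.61 (adjusted p = 0.0453). These had the least summed hypothalamic and the most choroid plexus signal, and the hypothalamic sum includes 4 genes that hold only multiples of 11.

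Cldn5 stood at 19.6, 19.6 and 23.0 CPM in lesioned STR, against 32.1, 28.9 and 28.3 CPM in control STR. The groups did not overlap (log2 fold change -0.53, SE 0.096, adjusted p = 0.139). Slco1a4 stood at 55.3, 48.7 and 53.7 CPM in lesioned STR, against 68.2, 60.0 and 69.8 CPM in control STR. Here too the groups were apart (-0.34, SE 0.084, adjusted p = 0.182). Kdr stood at 12.7, 10.4 and 13.8 CPM in lesioned STR, against 16.6, 17.0 and 21.1 CPM in control STR. Its lesioned libraries were all lower (-0.58, SE 0.15, adjusted p = 0.183).

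The remaining members overlapped between the striatal groups. Flt1 had 50.8 to 67.1 CPM in lesioned and 49.8 to 65.2 CPM in control STR (log2 fold change -0.03, SE 0.13). Pecam1 (-0.14, SE 0.19), Tek (-0.06, SE 0.18), Pdgfrb (-0.07, SE 0.11) and Rgs5 (-0.01, SE 0.073) were within their errors of 0. Rgs5 had 98.4, 95.5 and 93.2 CPM in lesioned STR and 95.3, 90.6 and 102 CPM in control STR. Acta2 had 7.30, 9.30 and 9.40 CPM in lesioned STR and 7.45, 7.04 and 6.07 CPM in control STR (0.33, SE 0.15, adjusted p = 0.307). Libraries did not overlap for 4 members lower, against 12.5% of all genes, and the median log2 fold change was -0.11, against -0.0049 over all genes.

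**Figure D2:**
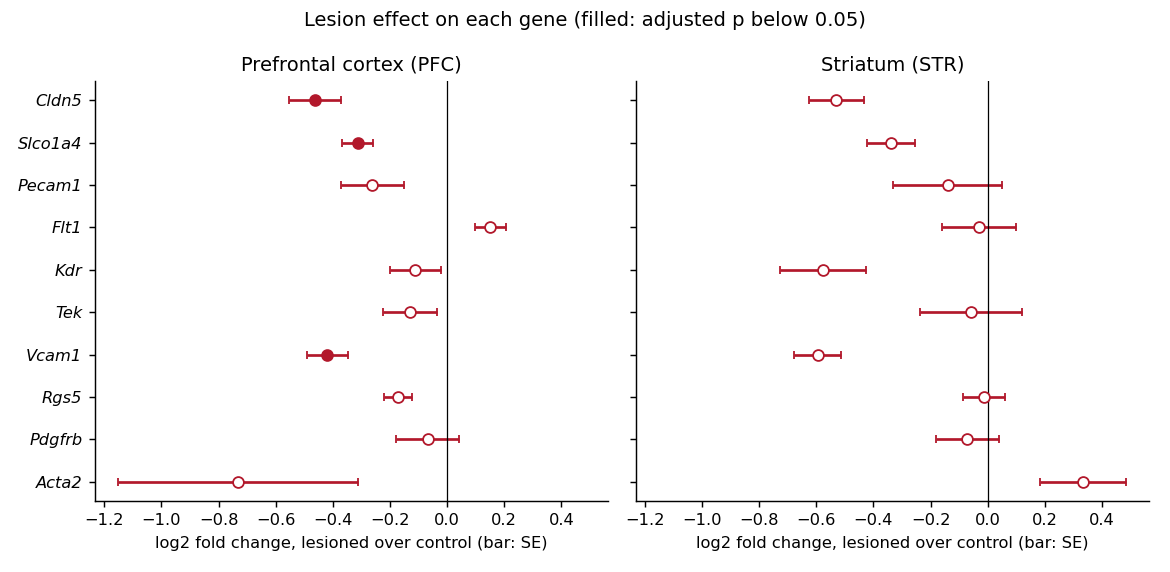
Log2 fold change of each member, lesioned over control (horizontal axis), with its SE, in PFC on the left and STR on the right; filled points have an adjusted p below 0.05. Cldn5 (-0.46), Slco1a4 (-0.31) and Vcam1 (-0.42) are filled in PFC and no point is filled in STR, where the same genes lie at -0.53, -0.34 and -0.60.

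Set side by side, the regions gave Cldn5 -0.53 in STR and -0.46 in PFC, Slco1a4 -0.34 and -0.31, and Vcam1 -0.60 and -0.42. These 3 members were lower without overlap in both regions, as were 2.96% of all genes. In both regions 8 of 10 members had a log2 fold change below 0, against 31.6% of all genes. The regional difference of the lesion effect was called for 0 of 10 members (edgeR, all 12 libraries), where 0.0825% of all genes were called. At an unadjusted p below 0.05 there was 1 of the 10 (1704 of all 14545 genes), Kdr, with a difference of -0.47 (SE 0.17, adjusted p = 0.345). DESeq2 and limma-voom called 0 members each, and 116 and 86 of all genes. The difference, striatal minus prefrontal effect, was -0.07 (SE 0.15) for Cldn5, -0.03 (SE 0.10) for Slco1a4, -0.18 (SE 0.097) for Vcam1 and 0.15 (SE 0.08) for Rgs5.

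Single libraries carried part of the spread. Control PFC library 3 was the highest of the 6 PFC libraries for 8 of 10 members, and control STR library 3 the highest of the 6 in STR for 6. Lesioned PFC library 3 was the lowest in its region for 4 members. Control STR library 2, the one with choroid plexus transcripts, was lowest for 4. The summed mural over the summed endothelial level was 0.76, 0.73 and 0.75 in lesioned PFC and 0.69, 0.78 and 0.80 in control PFC. In STR it was 0.83, 0.83 and 0.69 after the lesion and 0.61, 0.71 and 0.67 in controls. These ratios overlapped between lesioned and control in both regions.

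**Figure D3:**
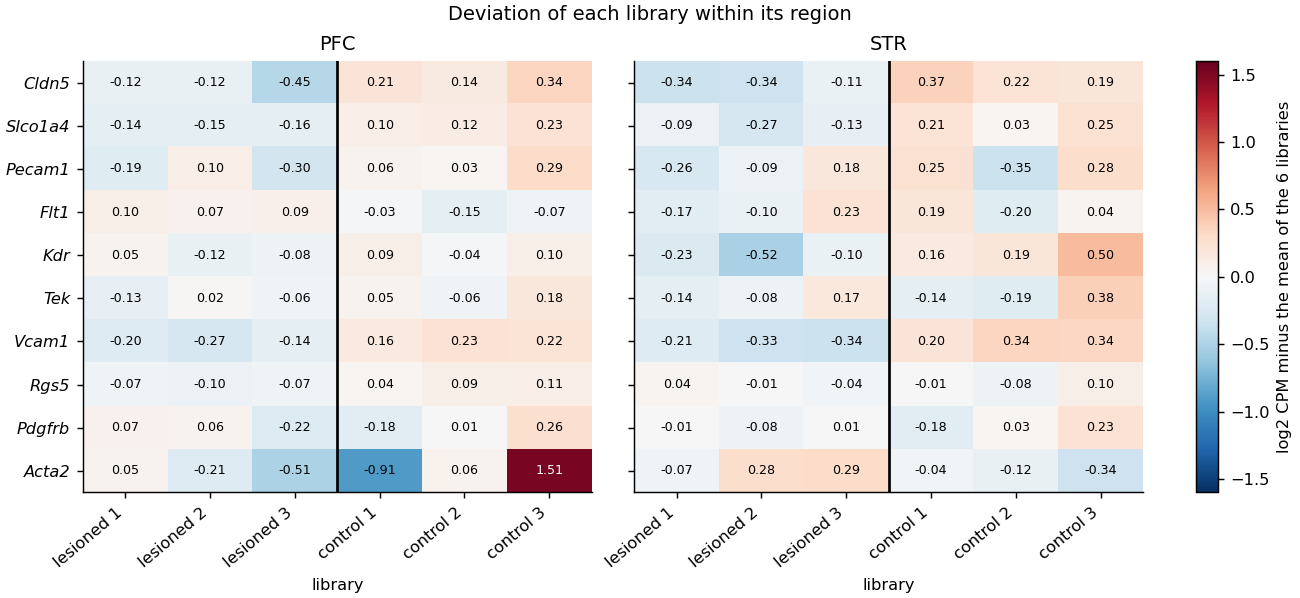
Deviation of log2 CPM of each member (rows) in each library (columns) from the mean of the 6 libraries of its region; red is above and blue below, and the line parts lesioned from control libraries. Cldn5, Slco1a4 and Vcam1 are blue in all 6 lesioned and red in all 6 control libraries, whereas control PFC library 3 is highest for 8 members, with Acta2 at 24.3 CPM farthest out.

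Acta2 was set beside 12 other smooth muscle genes, of which 9 were tested. In PFC, 0 of the 9 were called by edgeR, 0 at an unadjusted p below 0.05, and 0 by DESeq2 and limma-voom. Myh11, smooth muscle myosin, had 8.09, 7.24 and 5.32 CPM in lesioned PFC and 5.63, 5.97 and 15.7 CPM in control PFC. Tagln, an actin-binding protein of the same cells, had 6.10, 4.22 and 3.39 CPM after the lesion and 4.10, 4.36 and 12.9 CPM in controls. In both, the last control library was far above the others, as for Acta2.

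In STR, Tagln had 9.69, 8.23 and 10.2 CPM in lesioned and 5.58, 4.01 and 6.33 CPM in control libraries. The groups did not overlap (log2 fold change 0.81, SE 0.19, adjusted p = 0.172). Myl9, a myosin light chain, was likewise without overlap (0.37, SE 0.12, adjusted p = 0.222), while Des, desmin of contractile mural cells, lay on the other side (-0.83, SE 0.28, adjusted p = 0.224). By edgeR 0 of 9 passed, with 3 at an unadjusted p below 0.05 (2500 of all 14545 genes). DESeq2 called 1 (522 of all genes) and limma-voom 0.

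**Figure D4:**
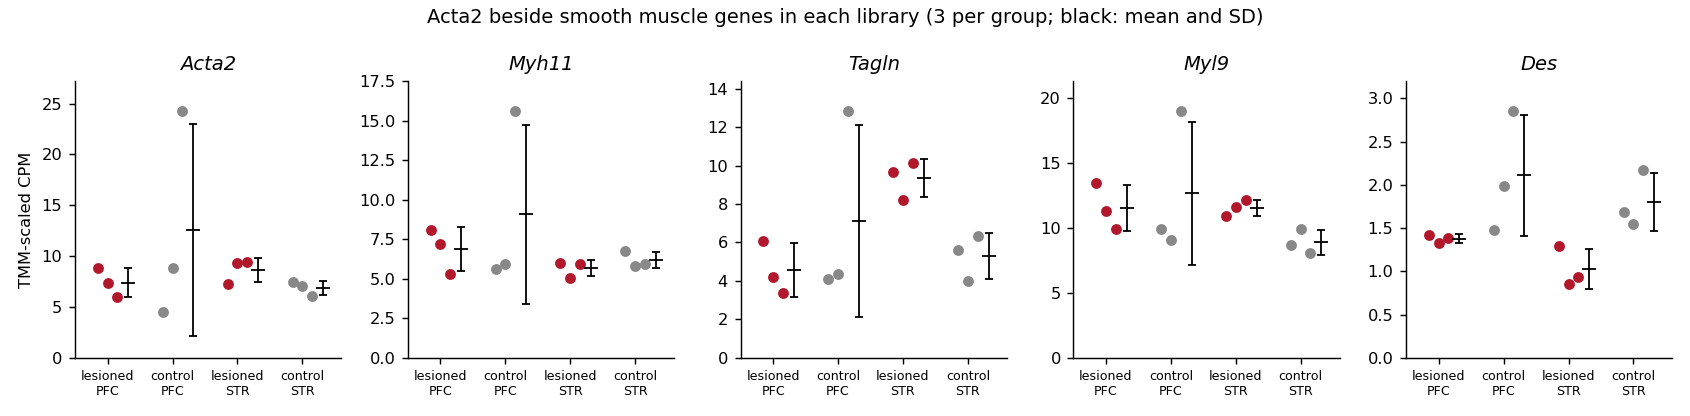
Acta2 and 4 smooth muscle genes in each library (TMM-scaled CPM, lesioned in red, control in grey, mean and SD in black, n = 3). Control PFC library 3 is the highest point in every panel, and for Tagln the lesioned STR libraries (8.23 to 10.2 CPM) lie above the control ones (4.01 to 6.33 CPM).

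Other genes of the endothelial barrier were read from lists written with earlier results of these data known. The PFC counts of these lists stand beside 2.18% of all genes called lower and 3.35% called higher. At an unadjusted p below 0.05 there were 2929 of all 14545 genes in PFC and 2500 in STR. DESeq2 called 837 of all genes in PFC and 522 in STR, and limma-voom 1027 and 270. In PFC, 4 of 11 barrier transport genes fell and 0 rose. Slco1c1, a thyroid hormone transporter, had 57.2, 59.5 and 56.4 CPM in lesioned PFC, against 82.2, 84.3 and 91.3 CPM in control PFC. The gap was wide next to the spread within groups (log2 fold change -0.59, SE 0.057, adjusted p = 0.000169). Slc16a1, which carries lactate and other monocarboxylates, fell by 0.61 on the log2 scale (SE 0.083, adjusted p = 0.00124). Mfsd2a, which carries lysolipids and restrains transcytosis, fell by 0.49 (SE 0.086, adjusted p = 0.00638). The transferrin receptor Tfrc, named after its values were seen to complete the count, fell by 0.30 (SE 0.077, adjusted p = 0.0385), though its libraries overlapped. With all 12 libraries in 1 fit, 1 of the 11 was called in PFC and 4 in STR. The median of the 11 was -0.08, and in STR it was -0.24 with 0 called by edgeR, 5 at an unadjusted p below 0.05, and 2 each by DESeq2 and limma-voom.

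Of 18 further junction and surface genes, 1 fell in PFC and 0 rose, a share near the 5.53% of all genes called in either direction. It was Adgrl4, an endothelial adhesion receptor (-0.44, SE 0.11, adjusted p = 0.0294). The partners of claudin-5 at the tight junction stood at -0.38 (SE 0.13, adjusted p = 0.112) for Ocln and 0.04 (SE 0.051) for Tjp1. Of 7 leukocyte adhesion genes tested, 1 rose: Plvap, the diaphragm protein of fenestrated vessels, had 8.41, 7.84 and 8.59 CPM in lesioned PFC, against 5.33, 5.20 and 4.83 CPM in control PFC. The groups lay well apart (0.68, SE 0.13, adjusted p = 0.0083). Vcam1, the adhesion receptor among the members, moved the other way. In STR edgeR called 0 of the 18 junction and surface genes, with 6 at an unadjusted p below 0.05, all lower. DESeq2 and limma-voom called 2 of them each, and their median was -0.18. Of the 7 leukocyte adhesion genes in STR, edgeR and limma-voom called 0 and DESeq2 1. By edgeR 3 had an unadjusted p below 0.05, all lower. Of all 14545 genes 2500 had, 1163 of them lower, and DESeq2 called 522 and limma-voom 270.

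The signalling genes that feed the receptors among the members gave few calls in PFC by edgeR. Of 17 tested VEGF, angiopoietin and apelin genes, 1 fell in PFC, also near the share over all genes, the endothelial nitric oxide synthase Nos3 (-0.47, SE 0.11, adjusted p = 0.0297). The ligand Vegfa stood at 0.05 (SE 0.08). Of 8 Wnt genes of the barrier, 1 fell: Apcdd1, a Wnt-induced membrane inhibitor, had 38.5, 39.3 and 34.7 CPM in lesioned PFC, against 53.2, 51.3 and 59.0 CPM in control PFC (-0.55, SE 0.072, adjusted p = 0.00098). In STR it had 25.6, 25.1 and 31.5 CPM after the lesion, against 41.3, 45.8 and 44.6 CPM in controls. Both regions were without overlap, but the striatal difference did not pass (-0.69, SE 0.10, adjusted p = 0.0976). By edgeR 5 of the 8 Wnt genes had an unadjusted p below 0.05 in PFC, 4 lower and 1 higher (2929 of all 14545 genes). DESeq2 called 1 in PFC (837 of all genes) and limma-voom 3, 1 of them higher (1027 of all genes). In STR edgeR called 0, with 4 at an unadjusted p below 0.05, all lower (2500 of all genes). There DESeq2 called 3 (522 of all genes) and limma-voom 2 (270 of all genes). Of 10 PDGF, TGF-beta and S1P genes, 0 were called in PFC by edgeR, 2 at an unadjusted p below 0.05, and 1 each by DESeq2 and limma-voom.

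For 11 endothelial transcription factors edgeR called 0 in PFC, with 2 at an unadjusted p below 0.05, and DESeq2 and limma-voom 0 each. In STR all 11 stood below 0, as did 50.8% of all genes, with a median of -0.52 against -0.0049. Of the 11, 0 were called by any of the 3 tools and 6 had an unadjusted p below 0.05 (2500 of all 14545 genes). Sox18 was at -0.84 (SE 0.24, adjusted p = 0.19) and Foxf2 at -0.80 (SE 0.21, adjusted p = 0.185) in STR. The VEGF and angiopoietin list had a striatal median of -0.47, with Angpt2, an antagonist of the Tek receptor, at -1.36 (SE 0.24, adjusted p = 0.139) and Nos3 at -0.72 (SE 0.13, adjusted p = 0.139). Of its 17 genes, edgeR called 0, DESeq2 3 and limma-voom 2, with 7 at an unadjusted p below 0.05. Of all 14545 genes the last 3 numbers were 522, 270 and 2500.

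The 13 pericyte genes beside Rgs5 and Pdgfrb gave 0 calls in PFC by edgeR, DESeq2 and limma-voom, and 1 unadjusted p below 0.05. Their median log2 fold change was -0.04 in PFC and -0.08 in STR. In STR, 0 were called by any of the 3 tools, and 8 had an unadjusted p below 0.05, 6 lower and 2 higher. Of all 14545 genes 2500 had, 1163 lower and 1337 higher. Ifitm1 (-1.21, SE 0.25, adjusted p = 0.16) and Anpep (-0.68, SE 0.17, adjusted p = 0.184) had the smallest p.

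**Figure D5:**
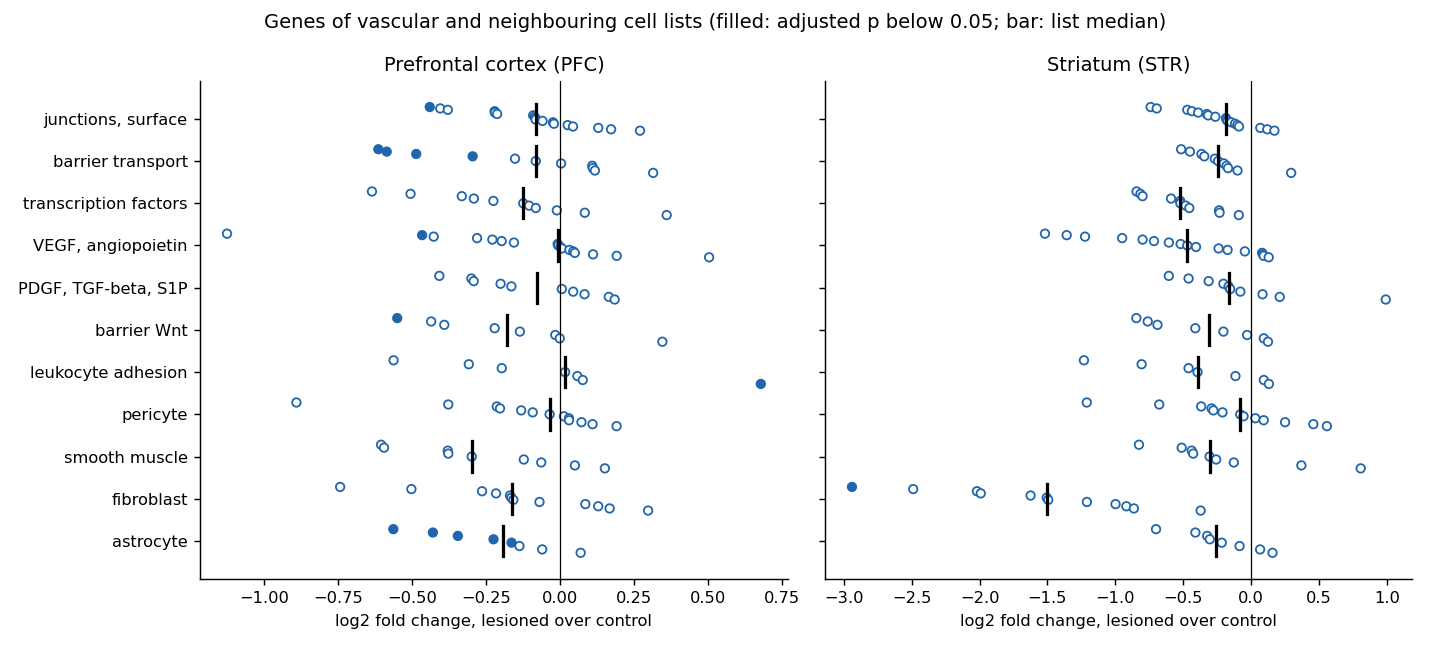
Log2 fold change, lesioned over control, of each tested gene in 11 lists of vascular and neighbouring cells, in PFC on the left and STR on the right, with differing horizontal scales; filled points have an adjusted p below 0.05 and the bar is the list's median. Barrier transport and astrocyte genes hold 4 and 5 filled points in PFC, all below 0, and the fibroblast list in STR is centred at -1.50.

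Genes of neighbouring cells moved beside the vascular ones. In PFC, 5 of 8 astrocyte genes were called lower (2.18% of all genes) and 0 higher, among them Fgfr3 (-0.43, SE 0.058), Sox9 (-0.56, SE 0.10) and the endfoot water channel Aqp4 (-0.35, SE 0.068), each without overlap. The list summed to 5115 to 5285 CPM in lesioned and 5640 to 6060 CPM in control PFC. Astrocytes also express Slco1c1. Of 6 microglial genes, 1 fell in PFC (Cx3cr1, -0.26, SE 0.059). Red blood cell genes summed to 1.03 to 6.73 CPM in lesioned and 3.34 to 18.4 CPM in control PFC, and 2 of 4 tested were called lower by edgeR and 0 by DESeq2 or limma-voom. The part of these cells in the vascular results was not tested.

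In STR, fibroblast genes of meninges and vessel wall summed to 32.5 to 48.6 CPM in lesioned libraries, against 86.1 to 118 CPM in controls. All 12 stood below 0, as did 50.8% of all genes, with a median of -1.50. By edgeR 1 fell, the organic anion transporter Slc22a6 (-2.94, SE 0.25, adjusted p = 0.044). That call was lost, with 0 of all genes called, with the replicate block, with multiples of 11 kept, and without lesioned STR library 2 or 3 or control STR library 1 or 2. At an unadjusted p below 0.05 there were 10 of the 12 (2500 of all 14545 genes). DESeq2 called 9 of the 12 (522 of all genes) and limma-voom 8 (270 of all genes). In PFC the same 12 genes summed to 85.4 to 129 CPM in lesioned and 95.2 to 133 CPM in control libraries, and edgeR, DESeq2 and limma-voom called 0 each, with 2 at an unadjusted p below 0.05. Of the 8 astrocyte genes in STR, edgeR called 0, DESeq2 1 and limma-voom 0, and 4 had an unadjusted p below 0.05, all lower. Among them Fgfr3 was at -0.41 (SE 0.086, adjusted p = 0.162) and Aqp4 at -0.30 (SE 0.082, adjusted p = 0.186), both without overlap. The list summed to 4142, 4175 and 4991 CPM in lesioned STR, ordered by size, and 4762 to 4930 CPM in control STR, which overlapped. All 6 microglial genes stood above 0 in STR, with a median of 0.29, and 0 were called by any of the 3 tools, with 2 at an unadjusted p below 0.05. They summed to 378 to 480 CPM in lesioned and 293 to 365 CPM in control STR. The part of fibroblast, astrocyte and microglial genes in the striatal values of Vcam1, Cldn5, Slco1a4 and Kdr was not tested.

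Between regions, lesioned STR and lesioned PFC differed in 4 of 10 members, all lower in STR, where 44.5% of all genes were called, 22.3% lower and 22.2% higher. The log2 fold change, STR over PFC, was -0.31 for Rgs5 (SE 0.055, adjusted p = 0.00319), -0.48 for Kdr (SE 0.12, adjusted p = 0.0158), -0.45 for Cldn5 (SE 0.12, adjusted p = 0.0162) and -0.20 for Slco1a4 (SE 0.067, adjusted p = 0.0458). For Kdr all lesioned STR libraries (10.4 to 13.8 CPM) lay below the lesioned PFC ones (16.3 to 18.3 CPM). Slco1a4 was close to the threshold and missed it with DESeq2 (adjusted p = 0.0597), with the replicate number as a block (0.0789) and in 5 of 6 fits with 1 library left out. Without lesioned PFC library 1 the calls numbered 1 (Rgs5), and without lesioned PFC library 2 they numbered 2 (Rgs5 and Kdr).

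Control STR and control PFC differed in 3 members, where 41.8% of all genes were called, 20.8% lower and 21% higher in STR. Rgs5 was lower in control STR, with 95.3, 90.6 and 102 CPM, against 129, 134 and 136 CPM in control PFC (log2 fold change, STR over PFC, -0.46, SE 0.063, adjusted p = 0.000689). Cldn5 was lower too (-0.38, SE 0.085, adjusted p = 0.00827). Vcam1 was higher in control STR, with 35.1, 38.6 and 38.5 CPM, against 29.6, 31.0 and 30.9 CPM in control PFC (0.30, SE 0.072, adjusted p = 0.0107). Without control PFC library 1 the Vcam1 call was lost (0.27, adjusted p = 0.0507). After the lesion Vcam1 had 26.3, 24.3 and 24.05 CPM in STR and 23.0, 21.9 and 24.01 CPM in PFC (0.12, SE 0.076, adjusted p = 0.239). Libraries of the 2 regions did not overlap for 4 members lower and 1 higher in controls (27.8% and 27% of all genes) and for 6 lower and 1 higher after the lesion (29.1% and 28.7%).

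Among listed genes that differed between control STR and control PFC, Cd34, a sialomucin of endothelium and progenitor cells, was lower in STR (-2.40, SE 0.15, adjusted p = 2.06e-05). The chemokine-binding receptor Ackr1 was lower as well (-0.81, SE 0.072, adjusted p = 8.56e-05), as was the pericyte-attracting ligand Pdgfb (-0.77, SE 0.12, adjusted p = 0.00161). The semaphorin and VEGF co-receptor Nrp2 was higher (2.08, SE 0.12, adjusted p = 1.63e-05). Of 13 pericyte genes, 3 were higher in control STR and 0 were lower, where 21% of all genes were higher and 20.8% lower. The 3 were Mcam (0.95, SE 0.16), Cspg4 (0.45, SE 0.11) and Notch3 (0.49, SE 0.15), the last with overlapping libraries. Cspg4 also marks oligodendrocyte precursors.

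The genes whose pattern over the 12 libraries lay nearest the mean endothelial profile were taken by the root mean square difference of scaled log2 CPM among 13673 genes. These were Ptprb (0.30), a phosphatase of the Tek receptor, the efflux pump gene Abcb1a (0.33), Cend1 (0.39) and Nop10 (0.39). Vcam1, which did not enter the endothelial mean, lay at 1.23 from it, the farthest of all members, beside Pdgfrb (1.22) and Acta2 (1.21). Rgs5 lay at 0.67. Abcb1a averaged 38.3 ± 0.69 CPM in lesioned and 42.1 ± 1.70 CPM in control PFC, and 30.2 ± 2.97 CPM in lesioned and 38.2 ± 2.18 CPM in control STR (SD, n = 3). Nearest the mural profile were Cav1 (0.44), Myh11 (0.49), Yipf3 (0.55) and Cops6 (0.57). The mural members themselves lay at 0.54 (Acta2), 0.71 (Pdgfrb) and 0.88 (Rgs5). Nearness to a profile therefore does not name the cell type of a gene. A profile over 12 libraries of 4 groups holds the group differences themselves, so these distances are a description.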

How the data were processed

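Gene counts were deposited by the authors as 1 table of raw read counts per gene symbol for the 12 libraries. Per the labels' protocols, libraries were made with a stranded kit from mRNA purified out of 500 ng of total RNA (RNA integrity number at least 8.9) and read as 101 bp pairs. Alignment with STAR 2.7.1a to mm10 and counting with featureCounts are named per the submitters' processing notes. The sources used here do not give the annotation, the strand setting or the handling of multi-mapping reads. Of the 21872 genes, 1830 hold only multiples of 11 (0.144% of counts). No member is among them, and they were left out of the main tests.

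The main test was edgeR's quasi-likelihood test (edgeR 4.0.16, R 4.3.3) with TMM normalisation, for the 14545 genes that filterByExpr kept over the 4 groups, on the 6 libraries compared, or on all 12 for the difference between regions. P-values were two-sided and adjusted by Benjamini and Hochberg over all genes, with calls below 0.05. The SE is the absolute log2 fold change over the root of F. Self-tests on simulated counts were run first. CPM are scaled by TMM factors, and RPKM use the union exon length of GENCODE vM21. Alternatives were RLE and upper-quartile factors, other filters, DESeq2 1.42.0, limma-voom 3.58.1 with quality weights, the multiples of 11 kept or divided, a replicate block, a GC and length correction, 1 fit of all 12 libraries and libraries left out. Upstream sequences are those of RefSeq (GRCm38.p6), and 7 of 10 members had one. A library number names a library and was not used to pair libraries.

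The members and all gene lists were chosen with earlier results of these data known. From each list up to 3 called genes per direction with the smallest p are named, or up to 2 where a vascular list has no call, and a few others were named after their values were seen. For likeness of pattern the 4 nearest genes above 1 CPM are named, after scaling log2 CPM (prior count of 0.5).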

Additional observations from a re-analysis of the deposited data

Results flagged for a closer look

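The lesion effect differed between regions for 4 fibroblast genes in the test of the difference itself (edgeR, all 12 libraries), and for 1 transporter of the barrier the libraries of the regions moved in opposite directions. For Slc22a6 the striatal minus the prefrontal effect was -2.68 on the log2 scale (SE 0.34, adjusted p = 0.016). For Aldh1a2, which makes retinoic acid in the meninges, it was -1.87 (SE 0.28, adjusted p = 0.0393). For Ogn, a matrix proteoglycan, it was -1.82 (SE 0.28, adjusted p = 0.0393). For Slc6a13, a GABA transporter of meningeal cells, it was -1.67 (SE 0.24, adjusted p = 0.0378). These calls were lost without control PFC library 1 or 2 and with limma-voom weights per region, where 0 of all genes were called. Without lesioned PFC library 1, 2 or 3, the calls over all genes numbered 3, 2 and 1. DESeq2 called 7 of the 12 fibroblast genes (116 of all genes) and limma-voom 4 (86 of all genes).

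Slc7a5, the large neutral amino acid transporter of the barrier, had 88.8, 83.9 and 80.5 CPM in lesioned PFC, all above the 78.9, 77.4 and 76.7 CPM of control PFC (log2 fold change 0.11). In STR it had 51.6, 57.3 and 60.6 CPM after the lesion, all below the 79.6, 70.9 and 66.7 CPM of controls (-0.36). The test of the difference did not pass (adjusted p = 0.208).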

How the results depend on the processing

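Of the fold changes of the 10 members over all alternatives, 924 kept their direction and their side of the threshold, 45 changed sign, 21 became called and 20 lost a call. The number of members called in PFC was 3, and it was 4 with DESeq2, with limma-voom and with at least 1 CPM in 3 libraries, 1 with all 12 libraries in 1 fit and 0 without lesioned PFC library 2 and control PFC library 3, a pair chosen after seeing the data. In STR it was 0, and it was 3 with DESeq2, 3 with limma-voom, 4 with all 12 libraries and 1 without lesioned STR library 1 and control STR library 2. Leaving out 1 library at a time gave 3 to 4 calls in PFC, 0 in STR, 0 for the difference between regions, 3 to 4 for the regions in controls and 1 to 5 for the regions after the lesion. Over all genes, 804 calls in PFC became 30 with all 12 libraries, 508 with multiples of 11 kept, 160 without the pair and 200 to 976 without 1 library. With DESeq2 and limma-voom they were 837 and 1027. The 4 calls in STR became 522 with DESeq2, 270 with limma-voom, 1040 with all 12 libraries and 59 without the pair, but 0 with the replicate block, with and without the GC and length correction, and with multiples of 11 kept, and 0 to 2 without 1 library. The 12 for the difference became 116, 86 and 0 with DESeq2, limma-voom and weights per region, 101 without the STR pair, 6 with the replicate block, 4 with the block and the GC and length correction, 5 with multiples of 11 kept and 0 to 172 without 1 library (0 without control PFC library 1 or 2, 172 without lesioned STR library 2). The cause was not tested, other than that fewer libraries entered the leave-outs.

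Signs changed for Acta2, at -0.73 in PFC and -0.85 for the regions in controls, without control PFC library 3. The other values that changed sign follow. Without the PFC pair, which holds that library, Pdgfrb was at 0.01 and Acta2 at 0.17, and with limma-voom Flt1 in STR was at 0.06. For the difference between regions Pdgfrb was at 0.00 with no filter and with multiples of 11 kept and at 0.01 with the GC and length correction with and without the replicate block, and Cldn5 was at 0.03 with limma-voom. For the regions in controls Kdr was at 0.05 with upper-quartile factors and with limma-voom, and without the STR pair Flt1 was at 0.02 and Kdr at 0.04. With 1 library left out, PFC values were -0.17 to 0.05 for Pdgfrb and -1.16 to 0.17 for Acta2. STR values were -0.15 to 0.06 for Flt1, -0.16 to 0.14 for Tek, -0.05 to 0.03 for Rgs5 and -0.17 to 0.03 for Pdgfrb. Differences between regions were -0.13 to 0.10 for Pdgfrb, -0.09 to 0.02 for Slco1a4, -0.06 to 0.24 for Pecam1 and -0.04 to 0.27 for Tek. The regions in controls gave -0.12 to 0.06 for Kdr, -0.06 to 0.17 for Pdgfrb, -1.27 to 0.04 for Acta2 and -0.16 to 0.02 for Flt1, and the regions after the lesion -0.05 to 0.09 for Pdgfrb.

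Deviations of same-numbered libraries correlated at -0.11 to 0.092 over the 4 comparisons of 2 groups, so the numbers were not taken as pairs. With the replicate block, 3 members were called in PFC, 0 in STR, 0 for the difference, 3 for the regions in controls and 3 after the lesion, where Slco1a4 missed the threshold (-0.20, adjusted p = 0.0789).

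The 3 libraries of each group limit the precision, and the spread between libraries was 15% in STR and 5.81% in PFC. Whether reads of paralogs or of the opposite strand were counted is unknown for Acta2, Slco1a4 and Vcam1. Markers of neighbouring tissue differed between striatal libraries, and vascular cell number was not measured.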
